A study of Mus musculus with 26 samples.

Results

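The 7 genes described here are the embryonic and adult globin genes of the mouse: *Hba-x*, *Hba-a1* and *Hba-a2* of the alpha type, and *Hbb-y*, *Hbb-bh1*, *Hbb-bs* and *Hbb-bt* of the beta type. They were taken by gene symbol from the deposited table, which holds 52454 symbols, and each was followed through all 10 RNA-seq libraries. The study asked which parts of the genome are methylated by the de novo DNA methyltransferases DNMT3A and DNMT3B during mouse development. Its RNA libraries number 1 per condition, so the values below describe single libraries, and a test was made only by fitting the 4 tissue libraries, or the 4 MEF libraries, together.

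The embryonic tissues were heart and liver at E14.5, each from an embryo labelled *Dnmt3a* WT and an embryo labelled *Dnmt3a* KO. These are C57BL6 embryos, male by label, from crosses of heterozygous carriers of a germline *Dnmt3a* deletion that, per the study's methods, is kept on a mixed B6;129S4 background. Within a genotype the heart and liver labels carry the same embryo number. MEFs, which are fibroblasts grown from embryos, here at E14.5, were taken at passage 1 from WT and *Dnmt3a* KO labels. Per the study's methods, their embryos also came from crosses of heterozygous carriers of that *Dnmt3a* deletion on the B6;129S4 background. They were kept with DMSO, the solvent, or with GSK126, an inhibitor of the histone H3K27 methyltransferase EZH2. 2i-MEFs came from E14.5 chimeric embryos made with female F1 embryonic stem cells (129X1/SvJ × MSM/Ms). Those cells had been grown in 2i medium with LIF and made *Dnmt3a* KO or *Dnmt3b* KO by CRISPR. Host cells were removed from the 2i-MEFs by G418 selection and by sorting for GFP. The WT 2i-MEF library and the 16 methylation samples were not analysed here.

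Depth, recovered from the step size of low values, lay between 9173971 and 26221251 mapped reads per library. The targeted gene did not follow every label. *Dnmt3a* was at 53.5 FPKM in WT liver and 12.7 in the liver labelled *Dnmt3a* KO, here called the KO-labelled liver, whereas the WT heart had 55.0 FPKM and the KO-labelled heart 125. In MEFs it was also higher under the KO label, at 85.7 against 26.1 FPKM with DMSO. For this reason libraries are called by their label, and a direction between genotype labels is not a direction of *Dnmt3a* loss. The tissue labels fitted their markers: 7 summed cardiomyocyte genes reached 50400 and 48100 FPKM in the hearts and at most 61.3 in the livers, and 8 summed hepatocyte genes reached 22100 and 14900 FPKM in the livers and at most 54.6 in the hearts.

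Haemoglobin is the oxygen carrier of red blood cells and is built from alpha-type and beta-type chains, each holding a heme group. The first red cells of the mouse embryo, the primitive lineage, arise in the yolk sac, circulate through every organ and make embryonic chains. They are followed by definitive red cells, which mature in the fetal liver and make adult chains. A tissue sample of a mid-gestation embryo therefore holds globin RNA from the blood within its vessels, and the fetal liver holds in addition the red cell precursors that are forming there.

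The genes lie in clusters on the mm10 assembly. The alpha cluster is on the plus strand of chromosome 11, with *Hba-x* at chr11:32276400-32278116, *Hba-a1* at chr11:32283511-32284465 and *Hba-a2* at chr11:32296489-32297298. The beta cluster is on the minus strand of chromosome 7, with *Hbb-y* at chr7:103851749-103853216, *Hbb-bh1* at chr7:103841637-103843164, *Hbb-bs* at chr7:103826534-103828096 and *Hbb-bt* at chr7:103812524-103813996. Read in the direction of transcription, the embryonic genes come before the adult genes among these 7 in both clusters.

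The adult genes of each cluster are nearly identical copies, which limits what reads of 75 bases can tell apart. Over the 426 coding bases without the stop codon, *Hba-a1* and *Hba-a2* differ at 1 base. Over the 441 coding bases of *Hbb-bs* and *Hbb-bt* there is also 1 difference. A coding window of read length around the difference is shown for each gene, because only windows that hold this base separate the coding copies, with the differing base in capitals and positions counted from the A of the start codon (C381T from *Hba-a1* to *Hba-a2*, C417T from *Hbb-bs* to *Hbb-bt*).
Hba-a1 coding bases 344 to 418: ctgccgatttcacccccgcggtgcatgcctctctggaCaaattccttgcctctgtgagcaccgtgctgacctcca
Hba-a2 coding bases 344 to 418: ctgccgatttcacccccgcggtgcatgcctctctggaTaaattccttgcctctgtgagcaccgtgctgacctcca
Hbb-bs coding bases 367 to 441: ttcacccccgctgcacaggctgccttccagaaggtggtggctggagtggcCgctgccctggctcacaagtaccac
Hbb-bt coding bases 367 to 441: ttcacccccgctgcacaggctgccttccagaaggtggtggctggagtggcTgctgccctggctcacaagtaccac

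Of the windows of 75 bases along the longest annotated transcript, 389 of 625 (62.2%) of *Hba-a1* and 389 of 480 (81.0%) of *Hba-a2* occur exactly in the other copy. For *Hbb-bs* the number was 356 of 554 (64.3%), and for *Hbb-bt* 356 of 629 (56.6%). No window of *Hba-x*, *Hbb-y* or *Hbb-bh1* occurs in another gene. *Hbb-y* and *Hbb-bh1* share 76.4% of their coding bases, *Hbb-y* and *Hbb-bs* 74.4%, and *Hba-x* and *Hba-a1* 61.7%. Because the authors kept only uniquely mapped reads, adult globin levels can be undercounted and embryonic ones cannot on this ground, and the shares below are given both as deposited and divided by the unshared part of each transcript.

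The bases before the transcription start are shown for the genes whose levels the tissues separate, since the embryonic pair *Hba-x* and *Hbb-y* and the adult genes stood on opposite sides in heart and liver. Each run is the 120 bases upstream of the RefSeq start on GRCm38, in the direction of the gene. RefSeq starts differ from the gene spans given above. The runs of *Hba-x*, *Hba-a1* and *Hbb-bs* lie within those spans, and the runs of *Hbb-y* and *Hbb-bt* lie partly within them. Capitals mark 4 motifs on either strand, searched as exact letters that do not overlap: the CCAAT box, the TATAA letters of the TATA box, the GATAA letters that GATA factors bind, and the CACCC letters that KLF factors bind. Among 32851 RefSeq promoters, windows of the same length hold CCAAT in 21.3%, TATAA in 11.8%, GATAA in 10.5% and CACCC in 31.7% of cases.
Hba-x (chr11:32276480-32276599, plus strand): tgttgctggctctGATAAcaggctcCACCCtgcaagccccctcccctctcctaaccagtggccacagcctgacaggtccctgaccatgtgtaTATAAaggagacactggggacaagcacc
Hba-a1 (chr11:32283552-32283671, plus strand): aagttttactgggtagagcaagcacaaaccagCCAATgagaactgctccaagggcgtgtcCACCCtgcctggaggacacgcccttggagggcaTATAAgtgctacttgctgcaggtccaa
Hbb-y (chr7:103853208-103853327, minus strand): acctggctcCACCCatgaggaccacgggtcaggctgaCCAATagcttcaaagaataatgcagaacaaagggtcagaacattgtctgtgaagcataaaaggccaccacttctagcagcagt
Hbb-bs (chr7:103827929-103828048, minus strand): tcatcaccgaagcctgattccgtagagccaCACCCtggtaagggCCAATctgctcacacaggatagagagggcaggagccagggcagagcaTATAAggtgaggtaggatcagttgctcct
Hbb-bt (chr7:103813924-103814043, minus strand): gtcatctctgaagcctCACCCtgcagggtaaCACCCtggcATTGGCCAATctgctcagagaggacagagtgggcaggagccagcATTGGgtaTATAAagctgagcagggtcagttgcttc

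CACCC occurred in every window printed, once in each except *Hbb-bt*, which holds 2. CCAAT was in all but the *Hba-x* window, with 3 matches in *Hbb-bt*, TATAA in all but the *Hbb-y* window, and GATAA in the *Hba-x* window alone. The 120 bases before the *Hba-a2* start are found whole in the longer RefSeq sequence around the start of *Hba-a1*, and not in the run printed for it. These matches are letters in a window and were not tested for binding.

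Globin RNA was abundant in heart and liver and nearly absent from the fibroblasts. The summed level of the 7 genes was 60977 FPKM in WT heart, 54034 in the KO-labelled heart, 120080 in WT liver and 161650 in the KO-labelled liver. This was 6.9%, 6.17%, 12.5% and 16.1% of all FPKM in those libraries. A globin gene had the highest level of all genes in the liver libraries and in the KO-labelled heart, and the second highest (rank 2) in WT heart. In the MEF libraries the sum was at most 4.15 FPKM, and in the 2i-MEFs it was 0.

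**Figure D1:**
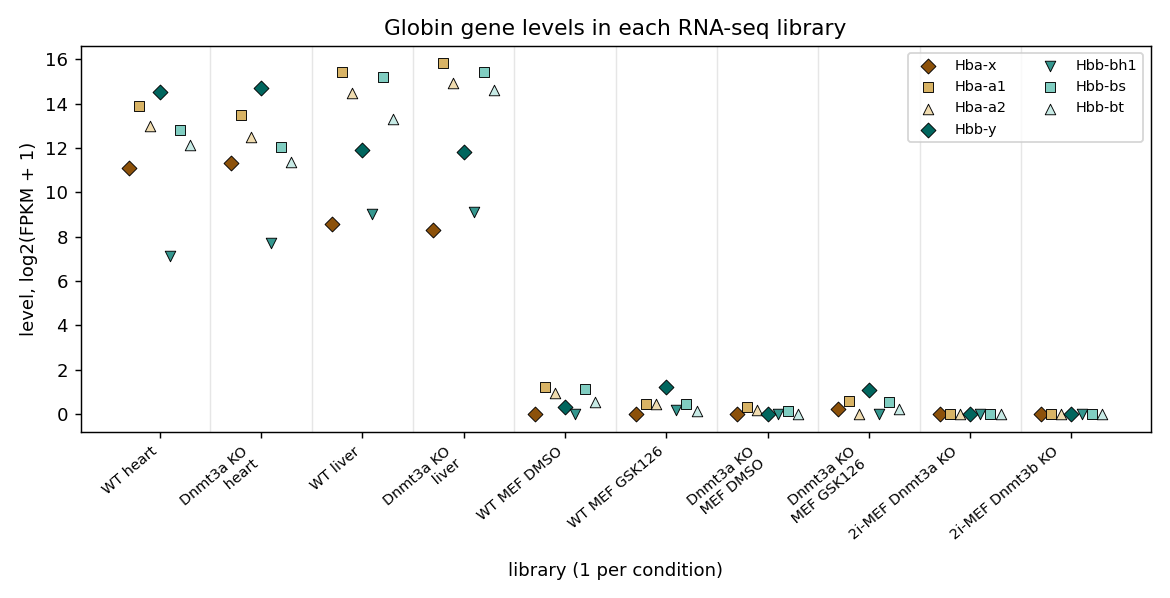
Level of each globin gene in each of the 10 RNA-seq libraries, as log2(FPKM + 1), with 1 library per condition and KO meaning the library's label. The 4 tissue libraries lie far above the fibroblasts, where no gene passes 1.33 FPKM, and the embryonic *Hbb-y* and *Hba-x* are higher in heart while the adult genes are higher in liver.

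*Hbb-y* encodes the embryonic epsilon-type beta chain and had the highest deposited level of the globin genes in the hearts. Its level was 23670 FPKM in WT heart and 27151 in the KO-labelled heart, against 3830 in WT liver and 3560 in the KO-labelled liver. Heart was thus 6.18-fold above liver in WT and 7.63-fold above it under the KO label. Divided by their unshared windows, *Hba-a1* (40176 and 30417 FPKM) and *Hba-a2* (43060 and 30332) would stand above *Hbb-y* in the hearts.

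*Hba-x* encodes the embryonic zeta-type alpha chain and had the same order at lower level. It was at 2194 FPKM in WT heart and 2540 in the KO-labelled heart, and at 375 and 318 FPKM in the corresponding livers. The heart was 5.85-fold and 8.0-fold above the liver. Within a library, *Hbb-y* stood at 10.8, 10.7, 10.2 and 11.2 times *Hba-x* (WT heart, KO-labelled heart, WT liver, KO-labelled liver), a ratio that was close in all 4 libraries while the levels of both genes moved between the tissues.

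*Hbb-bh1* encodes the other embryonic beta-type chain, and it went the opposite way. Its level was 138 FPKM in WT heart and 212 in the KO-labelled heart, against 516 in WT liver and 553 in the KO-labelled liver. Liver was 3.74-fold above heart in WT and 2.61-fold above it under the KO label. *Hbb-y* was therefore 171 and 128 times *Hbb-bh1* in the hearts and 7.42 and 6.43 times it in the livers. These values rest on at least 1079 reads of *Hbb-bh1* per tissue library, and its transcript shares no window of read length with another gene.

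The adult alpha genes *Hba-a1* and *Hba-a2* were the largest part of alpha-type RNA in all tissue libraries. *Hba-a1* was at 15171 FPKM in WT heart and 11485 in the KO-labelled heart, and at 44331 and 57575 FPKM in the livers. *Hba-a2* was at 8164 and 5750 FPKM in the hearts and at 22847 and 31029 in the livers. The ratio of *Hba-a1* to *Hba-a2* was 1.86, 2.0, 1.94 and 1.86. It was 0.933, 1.0, 0.974 and 0.932 once each gene was divided by its unshared windows, so these values do not show which copy was the more abundant.

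The adult beta genes *Hbb-bs* and *Hbb-bt* were higher in liver. *Hbb-bs* was at 7184 FPKM in WT heart and 4226 in the KO-labelled heart, against 37960 and 43720 in the livers, a 5.28-fold and 10.3-fold excess in liver. *Hbb-bt* was at 4458 and 2669 FPKM in the hearts and at 10218 and 24900 in the livers, 2.29-fold and 9.33-fold higher in liver. Summed, adult beta RNA was 4.14-fold higher in WT liver than in WT heart and 9.95-fold higher under the KO label. The same folds of the adult alpha sum were 2.88 and 5.14.

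By the threshold of 2-fold in FPKM + 1, 2 of the 7 genes were higher and 5 lower in heart than in liver, with both genotype labels. Of all genes with a value above 0, 13.3% were higher and 13.7% lower in WT, and 15.6% and 13.2% under the KO label. The 2 genes higher in heart were *Hbb-y* and *Hba-x* with either label. In a limma fit of the 4 tissue libraries with the embryo number as a block, made on genes with at least 1 FPKM in 1 library, the same 2 genes were higher and 5 lower at an adjusted p under 0.05. The adjusted p ranged from 8.87e-05 for *Hbb-y* (mean log2 ratio 2.78) to 0.0118 for *Hbb-bt* (-2.21). That fit called 29.1% of all genes higher and 31.2% lower, and it has 1 residual degree of freedom per gene from 2 embryos, each of another genotype label. Fewer red cells and less globin RNA per red cell cannot be told apart in such bulk samples, so the make-up within a library is described next. The make-up still depends on the mix of circulating blood and red cell precursors in the sample.

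By deposited FPKM, most beta-type RNA was embryonic in the hearts and adult in the livers, though not in WT heart once shared windows were allowed for, as given below. *Hbb-y* and *Hbb-bh1* together were 67.2% of beta-type FPKM in WT heart, 79.9% in the KO-labelled heart, 8.27% in WT liver and 5.66% in the KO-labelled liver. Nearly all of the embryonic share was *Hbb-y* in the hearts (66.8% and 79.3%), while *Hbb-bh1* gave 0.39% and 0.619% there and 0.983% and 0.761% in the livers. Among alpha-type RNA the embryonic *Hba-x* was 8.59% and 12.8% in the hearts and 0.555% and 0.357% in the livers, so alpha-type RNA was mainly adult in all 4 libraries.

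Shared reads bear on the size of these shares but not on their order. With each gene divided by the unshared part of its transcript, embryonic beta RNA was 43.9% in WT heart, 60.4% in the KO-labelled heart, 3.24% in WT liver and 2.24% in the KO-labelled liver. Embryonic alpha RNA was then 2.57%, 4.01%, 0.157% and 0.1%. This correction assumes even coverage along the longest annotated transcript. Under it the embryonic genes no longer gave the larger part of beta-type RNA in WT heart.

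**Figure D2:**
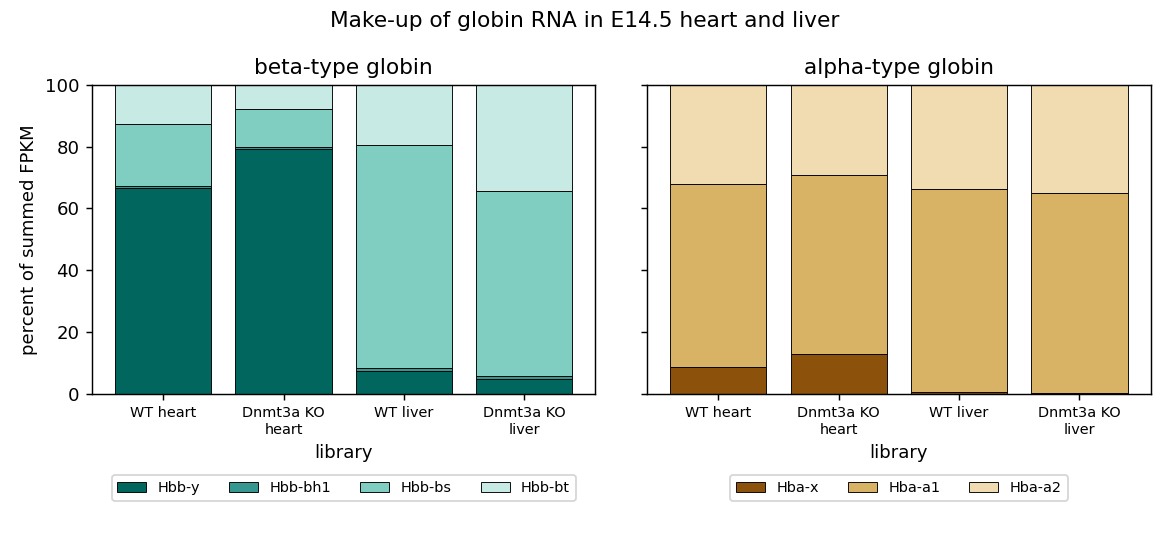
Make-up of beta-type (left) and alpha-type (right) globin RNA in E14.5 heart and liver, as percent of the summed FPKM of that type in each library as deposited, with 1 library per bar. *Hbb-y* gives 66.8% and 79.3% of beta-type RNA in the hearts and 7.29% and 4.89% in the livers, and *Hbb-bt* takes 34.2% in the KO-labelled liver against 19.5% in WT liver.

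The balance of alpha-type to beta-type FPKM was 0.72 and 0.577 in the hearts and 1.29 and 1.22 in the livers. Taking adult genes alone, alpha exceeded beta in every tissue library, by 2.0 and 2.5 times in the hearts and by 1.39 and 1.29 times in the livers. With the division by unshared windows the total alpha to beta ratio was above 1 in all 4 libraries, at 1.58, 1.4, 1.78 and 1.72, so the excess of beta-type RNA in the hearts depends on how shared reads are treated.

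Between genotype labels no globin gene of the heart passed 2-fold in either direction (0 of 7), where 1.44% of all genes were higher and 1.22% lower. The adult genes were all lower under the KO label, with log2 ratios of -0.40 for *Hba-a1*, -0.51 for *Hba-a2*, -0.77 for *Hbb-bs* and -0.74 for *Hbb-bt*. The embryonic genes were all higher, by 0.21 for *Hba-x*, 0.20 for *Hbb-y* and 0.61 for *Hbb-bh1*. The adult beta sum went from 11642 FPKM in WT heart to 6895 in the KO-labelled heart, while the embryonic beta sum went from 23808 to 27363 FPKM.

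Of the other markers in the heart, the hepatocyte genes also differed. The summed level of 8 hepatocyte genes was 54.6 FPKM under the WT label and 12.8 under the KO label. Under the KO label 5 of the 8 were at least 2-fold lower, with none at 0. Over all genes 1.22% were lower and 1.44% higher between the hearts. The part of these hepatocyte transcripts in the globin difference was not tested. The median log2 ratio of 15 genes of the red cell membrane and its enzymes was -0.41 against 0.0 over all genes, with 2 lower by 2-fold and 0 higher. The medians were -0.47 for 5 megakaryocyte genes (79.5 and 59.1 FPKM summed), -0.22 for 14 heme genes and 0.03 for 20 globin regulators, with 0 genes past 2-fold in these lists.

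In the liver, *Hbb-bt* was the 1 member past 2-fold under the KO label and no member was lower, where 0.827% of all genes were higher and 1.37% lower. *Hbb-bt* went from 10218 to 24900 FPKM, a log2 ratio of 1.28 or 2.44-fold. Its near-identical neighbour *Hbb-bs* had a log2 ratio of 0.20. The adult alpha genes were at 0.38 and 0.44, *Hbb-bh1* at 0.10, *Hbb-y* at -0.11 and *Hba-x* at -0.24. The sum over all 7 genes was 1.35-fold higher in the KO-labelled liver. With both tissues in 1 limma fit, 0 of 7 genes differed between labels at an adjusted p under 0.05 where 0% of all genes were called higher and 0.0066% lower. At an unadjusted p under 0.05 the count was also 0, where 1.67% of all genes were higher and 2.94% lower. That fit averages the tissues, so it does not test the liver ratio of *Hbb-bt*.

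The split between the adult beta genes set WT liver apart from the other tissue libraries. *Hbb-bt* was 38.3% of adult beta FPKM in WT heart, 38.7% in the KO-labelled heart and 36.3% in the KO-labelled liver, but 21.2% in WT liver. The ratio of *Hbb-bs* to *Hbb-bt* was accordingly 1.61, 1.58 and 1.76 against 3.72 in WT liver. The heart with the same embryo number as the WT liver thus did not share its split. Both genes lose more than 56% of their windows to the other copy, so that the split rests on the unshared part of each transcript. Their sum was 1.42-fold higher under the KO label. Mouse strains also differ in the adult beta genes, and whether these embryos carry the C57BL6 or the 129 form of the cluster is not known here, and the part of strain in the values of either gene and in the 2.44-fold ratio of *Hbb-bt* was not tested.

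**Figure D3:**
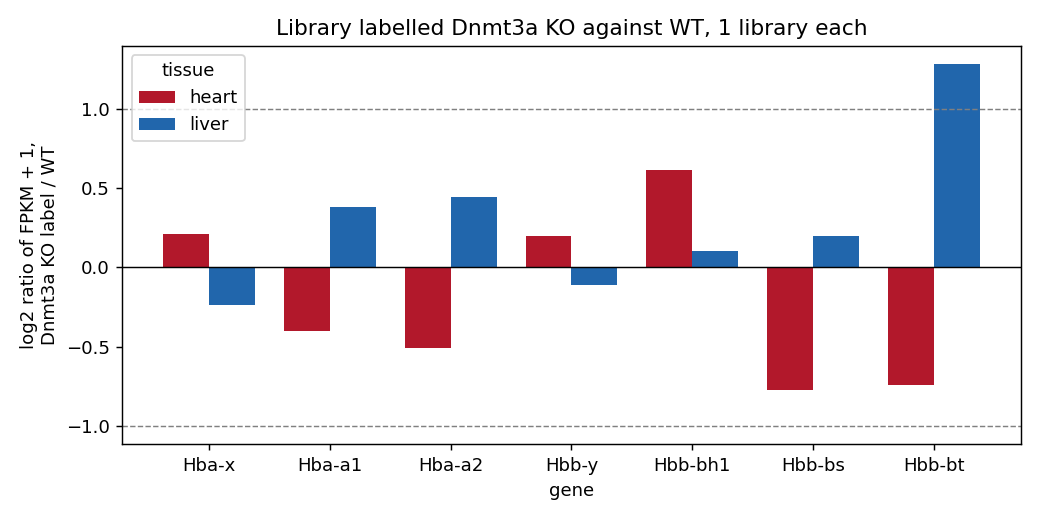
Log2 ratio of FPKM + 1 of the library labelled *Dnmt3a* KO to WT for each globin gene in heart and liver, with 1 library on each side and dashed lines at 2-fold. In heart the 4 adult genes lie below 0 and the 3 embryonic genes above it, and in liver only *Hbb-bt* passes 2-fold, at 1.28.

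The genes that build haemoglobin and the red cell were counted in the same way between the liver labels, where 0.827% of all genes were higher and 1.37% lower. Of 14 genes of heme synthesis, iron uptake and heme turnover, none passed 2-fold, and their median log2 ratio was 0.09. *Alas2*, which encodes the erythroid enzyme that starts heme synthesis, was at 849 FPKM in WT liver and 1035 in the KO-labelled liver. Of the 15 red cell membrane and enzyme genes none passed 2-fold, with a median of 0.01 and sums of 6260 and 6230 FPKM. Of 20 regulators of globin genes none passed 2-fold either, with a median of -0.10, against -0.08 over all genes. Among them *Klf1*, an activator of the adult beta gene, was at 480 and 469 FPKM, and *Bcl11a*, a repressor of embryonic globin genes, at 29.1 and 29.7. Of the lists of other cells in the liver, hepatocyte genes summed to 22100 and 14900 FPKM, macrophage genes to 273 and 180, fibroblast genes to 511 and 273, megakaryocyte genes to 734 and 664, and endothelial genes to 52.3 and 48.5. Cardiomyocyte genes summed to 61.3 and 13.6 FPKM, with 2 of 7 higher, 3 lower and a median log2 ratio of 0.05, and *Actc1* alone went from 48.5 to 3.97 FPKM. Their part in the globin values was not tested.

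Against liver, the hearts held much less of the summed RNA of these red cell genes than of summed globin RNA. All 15 membrane and enzyme genes were at least 2-fold lower in heart than in liver with both genotype labels. By this threshold 13.7% of all genes were lower in WT and 13.2% under the KO label. *Slc4a1*, which encodes the band 3 anion exchanger, was at 50.9 and 28.9 FPKM in the hearts and 2415 and 2079 in the livers. *Car2*, a carbonic anhydrase gene, was at 31.2 and 29.2 FPKM against 1449 and 1456. The list summed to 196 and 151 FPKM in the hearts and to 6260 and 6230 in the livers. By deposited FPKM the 7 globin genes together were 1.97-fold and 2.99-fold lower in heart. That sum includes *Hbb-y* and *Hba-x*, which were higher in heart, and its adult genes can be undercounted. *Hbb-bs* alone was 5.28-fold and 10.3-fold lower. The least reduced genes of the list were *Aqp1* (log2 ratios -1.43 and -1.37) and *Ank1* (-1.84 and -1.7).

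The share of all genes at least 2-fold lower in heart was 13.7% in WT and 13.2% under the KO label. All 14 heme genes found were lower by this measure with both labels. *Alas2* was the least reduced of them in WT, at 191 FPKM in heart and 849 in liver, a log2 ratio of -2.14, and *Slc25a37*, which encodes the iron importer of erythroid mitochondria, was the most reduced, at 7.39 and 409 FPKM. *Tfrc*, the transferrin receptor gene, was at 5.27 FPKM in WT heart and 190 in WT liver.

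Of the 20 regulators, 15 were at least 2-fold lower and 1 higher in WT heart than in WT liver, and 16 and 2 under the KO label. Over all genes 13.7% were lower and 13.3% higher in WT, and 13.2% and 15.6% under the KO label. *Klf1* was at 3.33 and 1.71 FPKM in the hearts and *Gata1*, a central erythroid transcription factor gene, at 1.86 and 0.990 against 162 and 158 in the livers. *Nfe2*, encoding an erythroid and megakaryocytic factor, was at 3.43 and 3.19 FPKM against 271 and 270. *Bcl11a* was less unequal, at 6.50 and 7.13 FPKM against 29.1 and 29.7, and so was *Sox6*, which represses embryonic globin together with it, at 8.23 and 6.01 against 32.7 and 44.0. *Myb*, a gene of immature blood progenitors, was at 0.275 and 0.135 FPKM in the hearts and 18.3 and 11.9 in the livers. Higher in heart were *Klf2*, a factor gene of both endothelium and primitive red cells (28.0 and 28.3 against 6.69 and 5.97 FPKM), and under the KO label *Gata2*, a gene of blood progenitors and endothelium (log2 ratio 1.35).

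**Figure D4:**
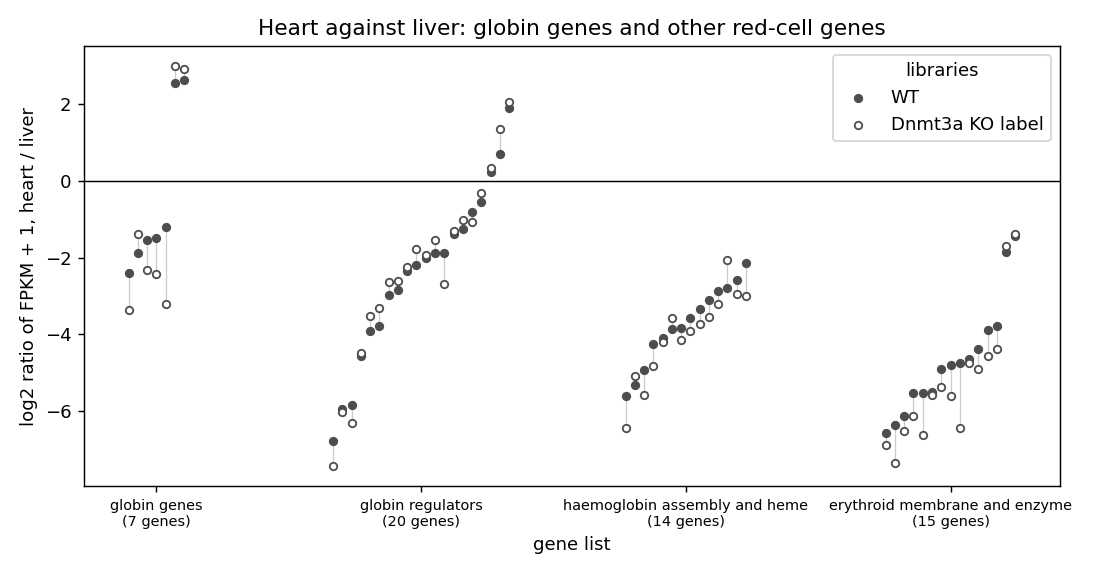
Log2 ratio of FPKM + 1 of heart to liver for each globin gene and for each gene of 3 lists of red cell genes, with WT filled and the *Dnmt3a* KO label open, 1 library on each side, and a line joining the values of a gene. Among the globin genes 2 (*Hba-x* and *Hbb-y*) are above 0, all 14 heme genes and all 15 membrane and enzyme genes are below it, and the regulators reach from -6.79 to 1.91 in WT.

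In heart and liver, genes that flank the clusters were less abundant than each of the 7 globin genes. In the fibroblasts they summed to more than the globin genes, at 92.1 to 104 FPKM in the MEFs and at 111 and 77.7 in the 2i-MEFs. Beside the alpha cluster, *Snrnp25* was at 43.2 and 41.3 FPKM in the hearts and 116 and 96.0 in the livers. *Nprl3*, which carries the main alpha globin enhancers in its introns, was at 12.1 and 14.3 FPKM in the hearts and 18.0 and 24.4 in the livers, and *Rhbdf1* was higher in heart, at 12.6 and 15.5 against 5.20 and 4.86. Of the 6 olfactory receptor genes beside the beta cluster, all were at 0 in every library except *Olfr66*, at 0.0265 FPKM in WT liver. Of the 11 flanking genes none passed 2-fold between genotype labels in heart or liver. Over all genes 1.44% were higher and 1.22% lower in heart, and 0.827% and 1.37% in liver. *Il9r* and the olfactory receptor genes lay too near 0 to pass 2-fold in FPKM + 1.

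The table also lists other globin genes of the alpha and beta type. *Hbq1b*, a theta-type alpha gene, was at 57.3 and 54.1 FPKM in the livers and 2.35 and 1.51 in the hearts, and *Hbq1a* was at 1.13 to 2.31 FPKM in the 4 tissue libraries. *Hbb-bh2* was at 0.109 FPKM in the KO-labelled liver, which is 1 read, and at 0 elsewhere, and *Hbb-bh3* was at 0 in every library. *Hba-ps4*, a pseudogene on chromosome 17, was also at 0 in every library. *Hbb-bh0*, annotated over only 129 bases between *Hbb-y* and *Hbb-bh1*, was listed at 154 and 123 FPKM in the hearts and 55.7 and 11.4 in the livers. That annotation is shorter than the fragment length of 202 bases that fits these libraries, so its FPKM cannot be turned into reads.

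Functional globin genes outside the clusters had other patterns. *Mb*, the myoglobin gene of heart muscle, was at 407 and 402 FPKM in the hearts, 0 in WT liver and 0.0508 in the KO-labelled liver. *Cygb*, the cytoglobin gene, was at 1.63 to 2.82 FPKM in the MEF libraries, 13.3 in *Dnmt3a* KO 2i-MEFs and 2.1 in *Dnmt3b* KO 2i-MEFs. It was at 2.48 and 3.22 FPKM in the hearts, which is within or above the range of the MEFs, and at 0.788 and 0.51 in the livers.

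In MEFs the globin values rest on at most about 12 reads per gene. With DMSO, 0 genes were past 2-fold between labels, where 2.63% of all genes were higher and 1.26% lower under the KO label. With GSK126 the count was also 0, against 1.86% and 1.91%. *Hbb-y* was listed at 0.257 FPKM in WT MEFs with DMSO, 1.32 in WT MEFs with GSK126, 0 in KO-labelled MEFs with DMSO and 1.09 in KO-labelled MEFs with GSK126. These are 2 reads (95% Poisson interval 0.24 to 7.22), 11 (5.49 to 19.68), 0 (0 to 3.69) and 10 (4.8 to 18.39). *Hbb-y* was thus the higher one in both libraries with GSK126. The intervals of the WT libraries overlap, those of the KO-labelled libraries do not, and they cover counting error only.

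The 4 adult genes were instead highest in WT MEFs with DMSO. *Hbb-bt* had 4, 1, 0 and 2 reads in the same order of libraries. *Hba-a1* was at 1.33 FPKM in WT MEFs with DMSO and at 0.266 to 0.484 in the other 3 MEF libraries, and *Hbb-bs* was at 1.17 FPKM there and at 0.0914 to 0.443 in the others. *Hba-x* was at 0.158 FPKM in KO-labelled MEFs with GSK126 and 0 in the other MEFs, and *Hbb-bh1* had 1 read, in WT MEFs with GSK126. By FPKM + 1, GSK126 against DMSO gave 0 of 7 genes past 2-fold in WT MEFs (all genes 1.39% higher, 1.02% lower). In KO-labelled MEFs it gave 1 higher, *Hbb-y*, and 0 lower (all genes 1.25% and 2.02%). The 4 comparisons of MEFs share libraries. In a limma fit of the 4 MEF libraries, *Hba-a1*, *Hbb-y* and *Hbb-bs* reached the minimum level, and 0 of these 3 passed an adjusted p of 0.05 for GSK126 (0.0141% of all genes higher, 0.0281% lower) or for the label (0.0633% higher, 0.0141% lower). *Hbb-y* had a mean log2 ratio of 0.97 for GSK126 with an adjusted p of 0.603 in limma, and it was the 1 member under 0.05 before adjustment, as were 3.68% of all genes in the higher direction and 4.32% in the lower.

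The red cell membrane and enzyme list summed to 47.8 to 113 FPKM in the MEFs, of which *Aqp1*, a water channel gene of other cell types as well, gave most. *Slc4a1* was at 0.0256 FPKM in WT MEFs with DMSO and at 0 in the other 3, and *Gata1* was at 0.117 FPKM in WT MEFs with DMSO and at 0 in the others. Other genes of these lists were highest elsewhere, *Rhd* and *Alas2* in WT MEFs with GSK126 (0.825 and 0.14 FPKM) and *Nfe2* in KO-labelled MEFs with GSK126 (1.47 FPKM). Macrophage genes summed to 548 to 831 FPKM in the MEFs, and their part in the globin reads was not tested.

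All 7 genes were at 0 in both 2i-MEF libraries, where 3.73% of all genes were higher and 2.36% lower in *Dnmt3a* KO than in *Dnmt3b* KO. A count of 0 has a 95% Poisson interval of 0 to 3.69 reads per gene, at depths of 10931737 and 9173971 mapped reads. *Slc4a1* was also at 0 in both, *Alas2* was at 0 in *Dnmt3a* KO and at 0.296 FPKM in *Dnmt3b* KO, and *Hbq1b* was at 0.302 FPKM in *Dnmt3b* KO 2i-MEFs.

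The genes whose level over the 10 libraries was most like the mean of the 7 globin genes were *Cldn5* (Pearson r = 0.9983), *Grhpr* (0.9974) and *Slc25a5* (0.9961), out of 10434 genes that reached 10 FPKM. *Cldn5*, a tight junction gene of endothelium, was at 14.9 to 16.7 FPKM in the 4 tissue libraries and at 0 in all fibroblasts. For the embryonic genes alone the closest were *Hif3a* (0.9986) and *Med9* (0.9985), and for the adult genes *Atp1b2* (0.996) and *Alas2* (0.995). The libraries fall into tissues and fibroblasts, so r mainly records that split and is given as a description over 10 libraries.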

How the data were processed

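Poly(A) RNA was sequenced by the authors with stranded libraries and single reads of 75 bases. The submitters' processing notes name cutadapt, TopHat2 2.1.0, Bowtie2 and Cufflinks 2.2.1. Per the study's methods, reads were mapped to mm10 with a GENCODE annotation and kept when uniquely mapped with a MAPQ of at least 20. The authors deposited the FPKM values of 10 libraries as 52609 gene rows, with no read counts. Here, rows of the same symbol were summed, and a pseudocount of 1 FPKM was added before log2 ratios. Genes at least 2-fold apart were counted, over all genes above 0 in either library. Reads were recovered from FPKM using genes with 1 transcript of at least 1500 bases. Of values under 10 reads, 96.5% to 98.0% fell within 0.1 of a whole number. On simulated data the depth was recovered within 0.005%. Counting intervals are exact Poisson.

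Transcripts and gene models came from GENCODE M21 on GRCm38 and promoters from RefSeq. No promoter was used for *Hbb-bh1* and no *Ahsp* row was found. The text names the 7 members, other globin genes, fixed lists of regulators, heme, flanking and cell type genes, and the genes most correlated with the members (10 for all, 5 each for embryonic and adult), of which the leading ones are given. *Klf2* and the other list genes named singly were picked from these lists after their values were seen. The members and lists were chosen with earlier results of these data known. Scripts ran on Python 3.11.15 with pandas 2.3.3, numpy 2.4.6 and scipy 1.17.1. Each condition has 1 library. Additive limma 3.58.1 fits with a trended prior, chosen after seeing the data and tested on simulated data, took the 4 tissue libraries (tissue and embryo) or the 4 MEF libraries (treatment and label), with Benjamini-Hochberg adjustment. The heart and liver pairing comes from the embryo number in the labels. It was not checked against the data, in which *Dnmt3a* went opposite ways under the KO label in heart and liver. Pseudocount, centring, threshold, low-value filter, transcript length and shared windows were varied. Not every gene of the lists is reported here by name.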

Additional observations from a re-analysis of the deposited data

Results flagged for a closer look

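In 6 of the 7 globin genes the library labelled *Dnmt3a* KO lay on opposite sides of WT in heart and in liver. With 1 library per label and tissue, this difference was not tested, and 49.3% of 10935 genes with at least 1 FPKM in all 4 libraries also had opposite signs. The log2 ratio of FPKM + 1 was 0.21 in heart and -0.24 in liver for *Hba-x*, and 0.20 and -0.11 for *Hbb-y*, so these embryonic genes were higher in heart and lower in liver. The liver value of *Hbb-y* is close to the median of all genes (-0.08). The 4 adult genes had the opposite order. *Hba-a1* was at -0.40 in heart and 0.38 in liver, and *Hba-a2* at -0.51 and 0.44. *Hbb-bs* was at -0.77 and 0.20, and *Hbb-bt* at -0.74 and 1.28. *Hbb-bh1* was above WT in both tissues, at 0.61 and 0.10. *Dnmt3a* itself was higher under the KO label in heart (125 against 55.0 FPKM) and lower in liver (12.7 against 53.5 FPKM).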

How the results depend on the processing

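The limma fits of 4 libraries, chosen after seeing the data, kept the heart against liver counts with the replicate block of embryo number (2 higher, 5 lower). They called 0 genes for the KO label against WT with tissue as a block and 0 for GSK126 against DMSO with label as a block, where 2-fold had called 1 each (*Hbb-bt* in liver, *Hbb-y* in KO-labelled MEFs). These fits average tissues or labels and so do not test those single ratios. No ratio changed direction under a pseudocount of 0.1 FPKM or after centring on the median of all genes, and the heart against liver counts (2 higher, 5 lower) held under every alternative run. The counts that follow have no share of all genes beside them, since that share was taken only at 2-fold in FPKM + 1. They are therefore not read as a result about globin genes. At 1.5-fold, the heart labels gave 1 gene higher and 2 lower. MEF counts rest on few reads. For the KO label against WT with DMSO, 5 genes were lower with a pseudocount of 0.1, 3 at 1.5-fold and 1 after centring. With GSK126, a pseudocount of 0.1 gave 1 higher and 2 lower. For GSK126 against DMSO it gave 2 higher and 4 lower in WT and 4 higher and 1 lower under the KO label, and 1.5-fold gave 1 higher and 2 lower in WT.

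Embryonic shares from reads in WT heart, KO-labelled heart, WT liver and KO-labelled liver were 66.0%, 79.0%, 8.05% and 5.36% of beta-type RNA and 11.2%, 16.4%, 0.741% and 0.479% of alpha-type RNA. The division by unshared windows, chosen after seeing the data, gave 43.9%, 60.4%, 3.24% and 2.24%, and 2.57%, 4.01%, 0.157% and 0.1%. The first weights each gene by its transcript length and the second raises the adult genes by construction. Without any 1 of the 4 libraries, an additive fit has no residual degrees of freedom, so none was left out.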
